A study of Mus musculus with 12 samples.

Results

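The phagocyte NADPH oxidase, or NOX2 complex, was followed through 6 of its genes in mouse macrophages of the line RAW264.7. Members are Cybb and Cyba, which encode the membrane-bound flavocytochrome (gp91phox and p22phox), Ncf1 and Ncf4, which encode the cytosolic subunits p47phox and p40phox, and Rac1 and Rac2, which encode small GTPases of the complex. They are 6 of the 35865 genes with a listed transcript. Cybb was chosen by its measured values, namely its higher normalized counts in the miR-183-5p-EV libraries than in the ctrl-EV libraries of the same number in an earlier look at these data, and the other genes were added as parts of the same enzyme. The Cybb values with miR-183-5p-EVs and over all miR-EVs together are therefore described here without a test.

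RNA-Seq of polyadenylated RNA was performed on 12 libraries, with 3 in each of 4 groups. All cells received extracellular vesicles (EVs) for 48 h, at a dose of 3 µg protein per ml. The vesicles came from the mouse endothelial line MS-1. The EVs had been electroporated with a control mimic, given as cel-miR-67 in the study's methods (ctrl-EVs), or with a mimic of 1 of 3 mouse miRNAs (miR-EVs), namely miR-142-5p, or miR-183-5p, or else miR-222-3p. Values for these mimics are given in the numerical order of their names. No group without EVs was among these libraries, so the comparisons are between mimics carried by the same kind of vesicle in 1 cell line. Titles number the libraries of each group 1 to 3, and do not say what a shared number stands for or whether the libraries came from separate cultures. If they did not, p-values measure only a spread between samples that may be technical.

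NOX2 moves electrons from NADPH across the phagosome or plasma membrane to oxygen and so makes superoxide, an early step in the killing of microbes by phagocytes. gp91phox carries the electron path and depends on p22phox for its stability. In resting cells the cytosolic subunits and the Rac GTPase are kept apart from the flavocytochrome, and phosphorylation of p47phox and exchange of GTP on Rac bring them to the membrane.

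The EVs were loaded with synthetic mimics, whose listed sequences were not taken up here. For miR-222-3p the listed mimic is shorter at its 3′ end than the annotated sequence, with the same seed. A miRNA acts mainly through its seed, bases 2 to 8 from the 5′ end. The annotated mature sequences of the 3 miRNAs are therefore shown, with the seed in capitals. They are the RefSeq annotations on GRCm38.p6, at chr11:87756867-87756887 (plus strand), chr6:30169711-30169732 (minus strand) and chrX:19146901-19146923 (minus strand). The 3 seeds differ from each other.
miR-142-5p: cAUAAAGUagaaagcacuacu
miR-183-5p: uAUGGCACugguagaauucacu
miR-222-3p: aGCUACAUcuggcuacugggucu

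The 3′ UTR of the coding transcript with most reads of each gene was searched on its own strand for the 7-base complement of a seed (ACTTTAT for miR-142-5p, GTGCCAT for the next and ATGTAGC for the last of the sequences above) and for the complement of bases 2 to 7 with a closing A (CTTTATA for the first, TGCCATA for the next and TGTAGCA for the last). The 2 motifs of a miRNA share 6 bases. Among 13092 tested genes with a 3′ UTR, whose median length was 1013 bases, 21.8%, 15.1% and 16.5% held at least 1 motif for the 3 miRNAs in turn. The 3′ UTR of Cybb, 2965 bases long, held none of the motifs. None was found in those of Cyba (102 bases), Ncf4 (189 bases), Rac1 (1493 bases) or Rac2 (2321 bases) either. The 3′ UTR of Ncf1, 1490 bases in transcript Ncf1-202, held 2 matches to the miR-183-5p seed and none for the others. Both are printed with their flanks because they are the members' only matches, with the match in capitals, on the minus strand of GRCm38 at chr5:134220481-134220509 and chr5:134220462-134220490.
Ncf1 first match: cacagttggtgGTGCCATcctgggctggt
Ncf1 second match: ctgggctggtgGTGCCATcctaggctggt

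Libraries held 16294611 to 22974853 estimated counts, of which 3 counts, taken as the detection floor, were 0.131 to 0.185 CPM (counts scaled to a common library total). All 6 genes passed the filter on low counts. Of 10 macrophage markers 9 passed it, and their summed level was 1520 to 2060 TPM (a level per transcript length, scaled to the same sum in every library). Mertk was the marker that did not. The 9 endothelial markers summed to 14.8 to 34.0 TPM, with Kdr, Cldn5, Emcn and Esam under 10 counts in every library and Cldn5 at 0, and the 8 markers of neutrophils, which also carry this oxidase, summed to 4.89 to 8.88 TPM. None of these ranges separated ctrl-EVs from a miR-EV group. Because RNA was taken from whole cultures, fewer cells expressing a gene and less RNA per cell cannot be told apart. The replicate number was a stronger divide than the mimic: DESeq2's likelihood ratio test called 9651 of 13906 genes (69.4%) for the number at a Benjamini-Hochberg adjusted p under 0.05. The marker sums moved with it too. Macrophage markers summed to 1660 to 1814 TPM in libraries numbered 1, 1520 to 1686 TPM in those numbered 2 and 1990 to 2060 TPM in those numbered 3, and endothelial markers to 25.4 to 29.4, 14.8 to 17.5 and 25.9 to 34.0 TPM. The endothelial sum rested mainly on Egfl7, at a mean of 18.4 TPM over the 12 libraries, with Pecam1 at 3.26 and Vwf at 2.21 TPM. The part of the marker sums in the members' differences between numbers was not tested.

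On the TPM scale the 6 genes spanned a wide range of levels. Averaged over the 12 libraries, Rac2 was at 718 ± 29.3 TPM (SD, n = 12), Cyba at 433 ± 166, Rac1 at 314 ± 26.2, Ncf1 at 190 ± 62.9, Ncf4 at 112 ± 44.6 and Cybb at 9.70 ± 5.05. This order of mean levels was the same in all 4 groups. Cybb was the lowest member in every group, and its range over 3 libraries overlapped with that of no other member. Neighbours higher in the order often could not be separated by their ranges. Cyba and Rac1, and Ncf1 and Ncf4, overlapped in all 4 groups, Rac2 and Cyba overlapped in ctrl-EVs alone, and Rac1 and Ncf1 overlapped with miR-142-5p-EVs and also with miR-183-5p-EVs. The GTPase levels depend on short annotated transcripts. Rac2-203, of 254 bases, received 3.96% of the reads of Rac2 but 55.0% of its TPM, and Rac1-204, of 585 bases, received 23.6% of the reads of Rac1 but 63.3% of its TPM.

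Cybb, on the minus strand of chromosome X at 9435252 to 9487771 (GRCm38), encodes the catalytic subunit. Its normalized count, the estimated count divided by the size factor and the length offset of the model, was 397, 311 and 298 in ctrl-EVs libraries 1, 2 and 3. The miR-142-5p group was at 1066, 460 and 339, the miR-183-5p group at 740, 583 and 417 and the miR-222-3p group at 1082, 495 and 364. All 9 miR-EV libraries were above their ctrl-EV partner, the one with their number, but the lowest libraries of the miR-142-5p group and of the miR-222-3p group were within the ctrl-EV range. The 3 miR-183-5p-EV libraries all lay above that range, as did those of 3.2% of tested genes on 1 side or the other, and this is a contrast that the choice of Cybb used. For 3.67% of all tested genes each of the 9 miR-EV libraries was higher than its ctrl-EV partner. No other member had non-overlapping ranges in any comparison, where the share of all tested genes was 2.7% for the miR-142-5p group, 2.69% for the miR-222-3p group and 0.302% for all miR-EVs.

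**Figure D1:**
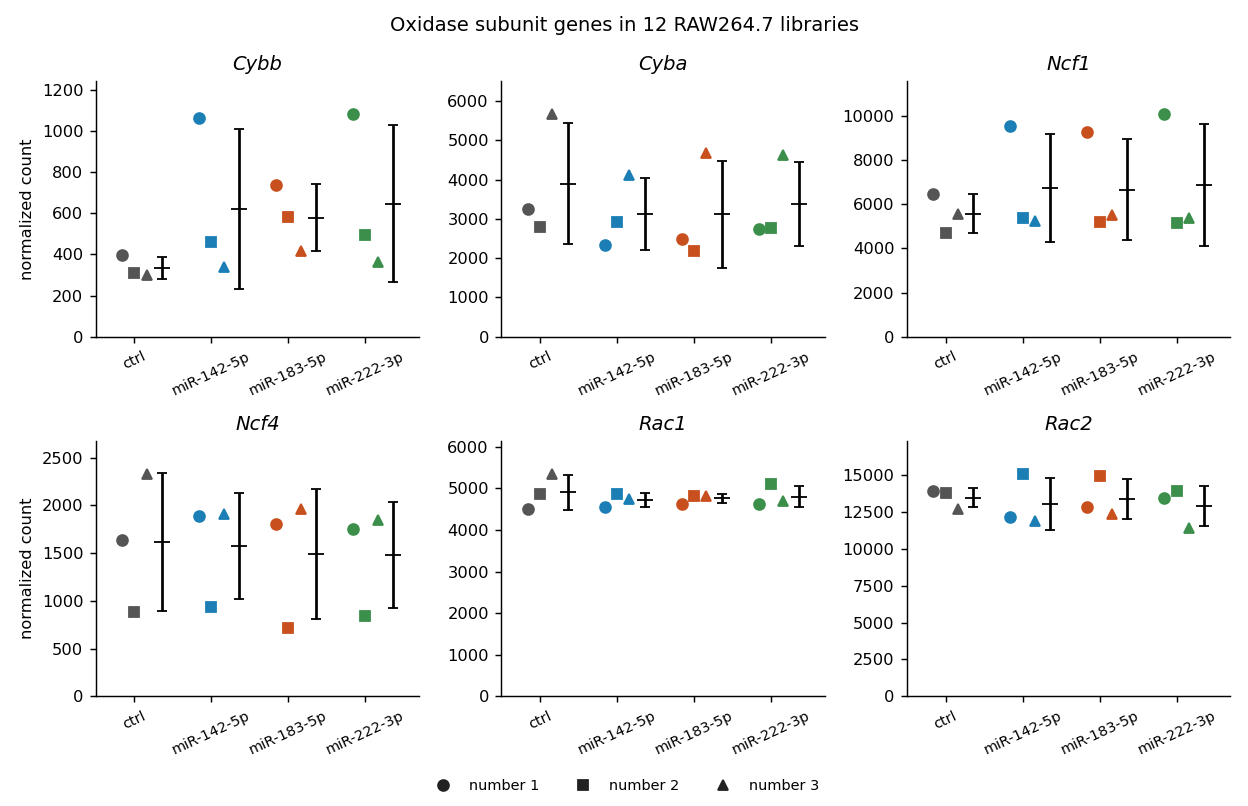
Normalized counts (vertical axes, from 0) of the 6 genes in the 4 EV groups (horizontal axes). Symbols are single libraries, shaped by their number in the titles, and the black bars are the mean ± SD of 3 libraries. The circles, which are libraries numbered 1, stand highest for Cybb and Ncf1 with miR-EVs, and Rac1 stays between 4495 and 5348 throughout.

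The size of the Cybb difference went with the library number. Over the 3 mimics the mean log2 difference from the ctrl-EV partner was 1.26 ± 0.31 (SD, n = 3) for number 1, 0.71 ± 0.17 for number 2 and 0.32 ± 0.15 for number 3. The corresponding ratios ran from 1.86 to 2.73 for number 1, from 1.48 to 1.87 for number 2 and from 1.14 to 1.40 for number 3. By mimic the log2 differences for numbers 1, 2 and 3 were 1.43, 0.57 and 0.18 in the miR-142-5p group, 0.90, 0.91 and 0.48 in the miR-183-5p group and 1.45, 0.67 and 0.29 in the miR-222-3p group. Number 3 had the smallest difference with every mimic. The 3 differences of a number share 1 ctrl-EV library and are not independent of each other.

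In the fit without a block the log2 fold change of Cybb was 0.89 ± 0.48 (SE) with miR-142-5p-EVs and it was 0.95 ± 0.48 with miR-222-3p-EVs, both with a DESeq2 adjusted p of 1.0. With the replicate number as a block the values were 0.72 ± 0.21 and 0.79 ± 0.20, and the DESeq2 adjusted p was 0.208 with miR-142-5p-EVs. DESeq2 set no adjusted p for miR-222-3p-EVs in that fit because its filter on mean counts removed Cybb. In edgeR's quasi-likelihood test with the block the adjusted p was 0.756 and 0.684. These comparisons use the same ctrl-EV libraries as the one that put Cybb forward. With miR-183-5p-EVs the log2 fold change was 0.79 ± 0.48 without and 0.74 ± 0.20 with the block, and over all miR-EVs it was 0.88 ± 0.36 and 0.75 ± 0.16. The block made the standard errors smaller and the differences slightly smaller. The values with miR-142-5p-EVs and those with miR-222-3p-EVs rested on their libraries numbered 1, without which the log2 fold changes in the fit with no block were 0.25 and 0.36. Conversely, in the blocked fit without the 4 libraries numbered 3, an alternative added after seeing the data, they were 1.0 (DESeq2 adjusted p = 0.0303) and 1.06 (DESeq2 adjusted p = 0.0043), and in the one without those numbered 1 they fell to 0.37 and 0.47 (DESeq2 adjusted p = 1.0 each).

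Almost all Cybb reads came from 1 transcript. Cybb-201, of 4752 bases, received 98.8% of them on average, and 0 to 20.1 reads per library went to Cybb-205, of 390 bases. Because Cybb-205 is short, these reads carried up to 31.7% of the TPM of the gene and changed the mean transcript length that enters the normalized count. Cybb-201 alone was at 16.5, 17.7 and 18.4 CPM in the ctrl-EV group, at 44.9, 20.1 and 15.5 CPM in the miR-142-5p group, at 43.7, 29.6 and 19.3 CPM in the miR-183-5p group and at 58.5, 24.9 and 19.7 CPM in the miR-222-3p group. On this scale number 1 was high in every miR-EV group, number 2 was higher than its ctrl-EV partner in every group, and number 3 was close to its partner in every group. The log2 differences for number 3 were -0.24, 0.07 and 0.10 in the order of the mimics, so miR-142-5p-EVs library 3 was below its partner. Without the length offset the log2 fold change with miR-142-5p-EVs was 0.63, and 0.42 with the block (DESeq2 adjusted p = 1.0 in both), while that with miR-222-3p-EVs was 0.99 and 0.76.

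**Figure D2:**
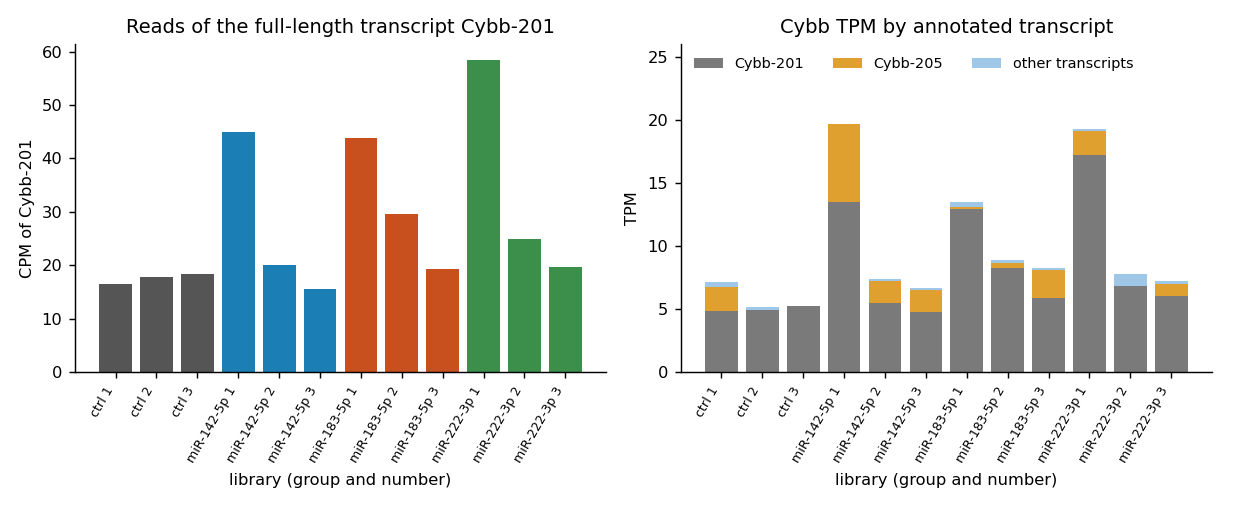
Left, CPM of Cybb-201 in each library. Right, TPM of Cybb in each library, stacked by annotated transcript. The bars on the left for libraries numbered 1 reach 43.7 to 58.5 CPM with miR-EVs against 16.5 CPM with ctrl-EVs, those numbered 3 lie between 15.5 and 19.7 CPM in all 4 groups, and the share of Cybb-205 on the right differs from library to library.

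Cyba, on the minus strand of chromosome 8 at 122424776 to 122432930, encodes the partner that holds the catalytic subunit in the membrane and docks p47phox. Its normalized count was 3243, 2799 and 5663 in ctrl-EVs libraries 1, 2 and 3, then 2339, 2917 and 4129 in the miR-142-5p group, 2492, 2183 and 4683 in the miR-183-5p group and 2755, 2777 and 4621 in the miR-222-3p group. The libraries numbered 3 were the highest in every group, and the ranges of all groups overlapped. Within the same number, 8 of 9 miR-EV libraries were lower than ctrl-EVs, with log2 differences of -0.47 to -0.01, and miR-142-5p-EVs library 2 was at 0.06. Each of the 9 libraries was lower for 3.85% of all tested genes. This is a stricter criterion, which Cyba did not meet, and the larger share for at least 8 of 9 was not computed. Cyba values lay on the opposite side of ctrl-EVs from Cybb values in the 8 libraries where Cyba was lower.

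The log2 fold change of Cyba was -0.32 ± 0.39 (SE), -0.32 ± 0.39 and -0.21 ± 0.39 for the 3 mimics in turn and -0.28 ± 0.29 over all miR-EVs, with a DESeq2 adjusted p of 1.0 each. With the block it was -0.29 ± 0.12, -0.34 ± 0.12, -0.18 ± 0.12 and -0.27 ± 0.09, and the DESeq2 adjusted p was 0.730, 0.167, 0.746 and 0.100. Cyba passed the threshold in no comparison by either fit. In the blocked fit without the 4 libraries numbered 2, added after seeing the data, it was at -0.46 with miR-142-5p-EVs (DESeq2 adjusted p = 0.0329) and at -0.35 over all miR-EVs (DESeq2 adjusted p = 0.00524), against -0.19 and -0.22 without those numbered 1. Fits over all miR-EVs count the miR-EV libraries of a number as separate samples beside 1 ctrl-EV library. Their SEs and adjusted p can therefore be too small. In the fit with no block without ctrl-EVs library 3 the value over all miR-EVs turned to 0.09. The TPM of Cyba over that of Cybb was 57.9, 63.8 and 135 in ctrl-EVs libraries 1, 2 and 3, and 15.5 to 90.1 in the miR-EV libraries. In every miR-EV library this ratio was below that of its ctrl-EV partner, which in part restates the Cybb values that put the gene forward. Cyba lies within the span of Gm20388 on the other strand, and whether reads were assigned by strand is not stated.

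Ncf1, on the minus strand of chromosome 5 at 134220053 to 134229625, encodes p47phox, the organizer whose phosphorylation starts assembly. Its normalized count was 6450, 4688 and 5568 in ctrl-EVs libraries 1, 2 and 3. It was 9551, 5389 and 5226 in the miR-142-5p group, 9271, 5179 and 5487 in the miR-183-5p group and 10060, 5153 and 5360 in the miR-222-3p group. The 3 miR-EV libraries numbered 1 stood well above all 9 others, and the remaining 6 miR-EV libraries lay within the ctrl-EV range.

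The mean log2 differences of Ncf1 over the mimics fell from number 1 to number 3, as for Cybb, at a smaller size. This order was not particular to Ncf1. The mean differences for numbers 1, 2 and 3 were 0.15, -0.10 and -0.29 for Ncf4 and 0.03, 0.02 and -0.17 for Rac1. The log2 fold change of Ncf1 with the block was 0.21 ± 0.12, 0.20 ± 0.12, 0.23 ± 0.12 and 0.22 ± 0.09 in the order of the 3 mimics and all miR-EVs, and the DESeq2 adjusted p was 0.881, 0.507, 0.616 and 0.190. Without the block it was 0.27, 0.26, 0.30 and 0.28, with a DESeq2 adjusted p of 1.0 each. The blocked fit without the libraries numbered 3, added after seeing the data, gave 0.36 over all miR-EVs (DESeq2 adjusted p = 0.0222). The one without the libraries numbered 1 gave 0.05 over all miR-EVs (DESeq2 adjusted p = 0.821) and 0.054, 0.059 and 0.038 for the 3 mimics in turn. Over the mimics the mean log2 difference of Ncf1 was 0.58 ± 0.06 (SD, n = 3), 0.16 ± 0.04 and -0.06 ± 0.04 for numbers 1, 2 and 3. The differences were alike within a number, but the 3 miR-EV libraries of a number were set against the same 1 ctrl-EV library. Fits over all miR-EVs count these libraries as separate samples, so their SEs and adjusted p can be too small. With miR-183-5p-EVs, the mimic whose seed has matches in its 3′ UTR, the log2 differences were 0.52, 0.14 and -0.02 for numbers 1, 2 and 3. The other mimics had 0.57 and 0.64 for number 1, 0.20 and 0.14 for number 2 and -0.09 and -0.05 for number 3, and a difference between mimics was not tested. The span of Ncf1 overlaps that of Gtf2ird2 on the other strand.

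Ncf4, on the plus strand of chromosome 15 at 78244801 to 78262580, encodes p40phox, which binds a phagosomal lipid and sustains superoxide production there. Its normalized count was 1635, 886 and 2330 in ctrl-EVs libraries 1, 2 and 3, 1888, 935 and 1905 in the miR-142-5p group, 1804, 714 and 1966 in the miR-183-5p group and 1754, 844 and 1846 in the miR-222-3p group. Libraries numbered 2 were lowest in all 4 groups, and all groups overlapped. Of the 9 miR-EV libraries 4 were higher and 5 lower than their ctrl-EV partner, all 3 numbered 1 being higher and all 3 numbered 3 lower. The log2 fold change with the block was -0.01 ± 0.12, -0.14 ± 0.12, -0.11 ± 0.12 and -0.08 ± 0.09 for the 3 mimics and all miR-EVs, with a DESeq2 adjusted p of 0.996, 0.688, 0.903 and 0.696.

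Relative to their means the GTPases varied least. Rac1, on the minus strand of chromosome 5 at 143503634 to 143528036, had normalized counts of 4495 to 5348 over the 12 libraries, with group means of 4906 ± 427 (SD, n = 3) in ctrl-EVs and 4723 ± 163, 4759 ± 107 and 4806 ± 258 for the 3 mimics in turn. Rac2, the GTPase of blood cells, on the minus strand of chromosome 15 at 78559167 to 78572783, had normalized counts of 11400 to 15073, with means of 13458 ± 653, 13036 ± 1767, 13375 ± 1385 and 12918 ± 1342 in the same order. With the block the log2 fold change lay between -0.05 and -0.03 for Rac1 and between -0.06 and -0.01 for Rac2 over the 3 mimics, with standard errors of 0.08. The lowest DESeq2 adjusted p in these fits was 0.866 for Rac1 and 0.917 for Rac2. Rac1 shares 461 bases of its transcript with Daglb, a gene read from the other strand, and the split of reads between them rests on the authors' counting.

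**Figure D3:**
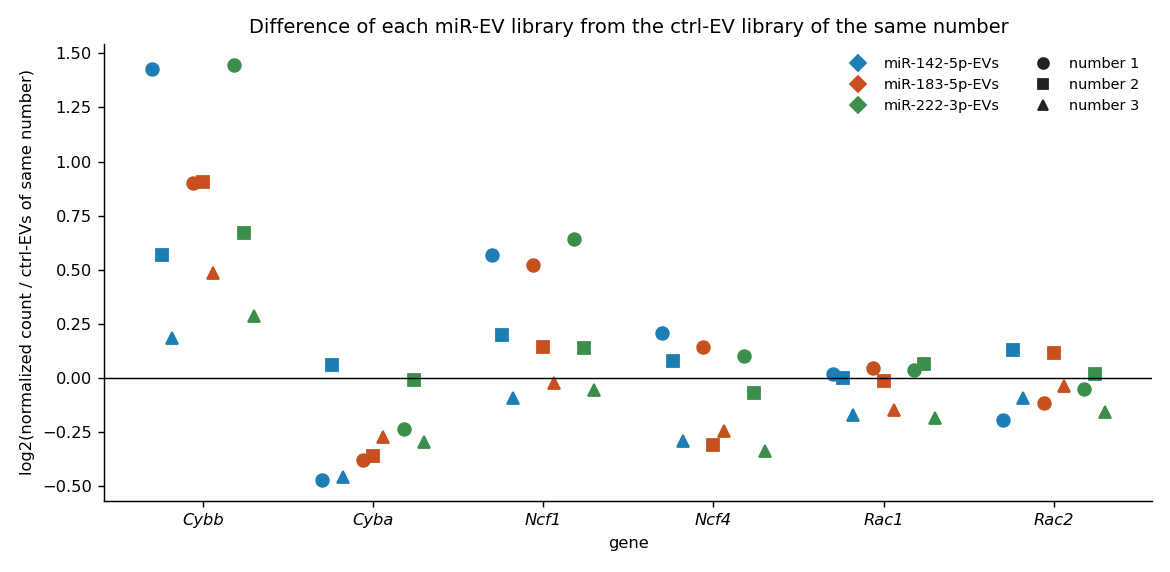
log2 ratio (vertical axis) of the normalized count of each miR-EV library to that of its ctrl-EV partner of the same number, for the 6 genes (horizontal axis), coloured by mimic and shaped by number. Cybb lies above 0 in 9 of 9 libraries, Cyba lies below 0 in 8 of 9, and Ncf1 is above 0 for numbers 1 and 2 and below 0 for number 3.

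Over the 4 comparisons DESeq2 without the block called 1 gene of 13897 with miR-142-5p-EVs (0.0072%), 0 (0%) in the other comparisons, and no member. With the block it called 8 (0.0575%), 57 (0.41%), 9 (0.0647%) and 223 (1.6%) of the tested genes for the 3 mimics in turn and all miR-EVs. Its test for a difference among any of the 4 groups called 1 gene (0.0072%) without and 12 (0.0863%) with the block. Leaving aside Cybb in the contrasts that chose it, which are not read as tests, none of the 6 members was among the genes these tests called. Cybb had no adjusted p with miR-222-3p-EVs in the blocked DESeq2 fit, which therefore could not call it. At an unadjusted p under 0.05 the blocked DESeq2 fit had 815, 1409, 908 and 1896 genes in the order of the 3 mimics and all miR-EVs. Outside the contrasts that chose Cybb, these included Cyba for the miR-183-5p mimic, the miR-142-5p mimic and all miR-EVs, Ncf1 for all miR-EVs, and Cybb for the other two mimics. The blocked edgeR quasi-likelihood test had the same members among 893, 1491, 986 and 1868 genes at an unadjusted p under 0.05, and 0 genes passed its adjusted threshold with or without the block. Without the block DESeq2 had 73, 138, 101 and 231 genes at an unadjusted p under 0.05, with Cybb for the miR-222-3p mimic among them and no other member outside the contrasts that chose Cybb. Asked for the replicate number, DESeq2 called 5 of the 6 members, against 69.4% of all genes. The DESeq2 adjusted p was 1.04e-09 for Cybb, 7.44e-20 for Cyba, 6.95e-15 for Ncf1, 4.14e-32 for Ncf4, 0.0039 for Rac2 and 0.283 for Rac1.

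**Figure D4:**
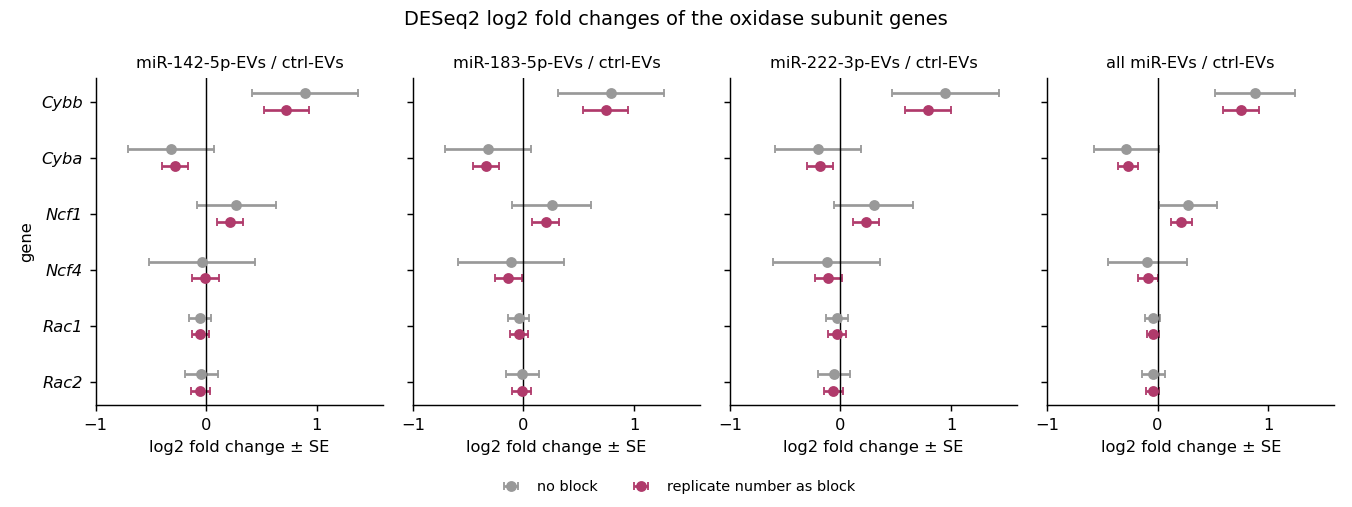
DESeq2 log2 fold change ± SE (horizontal axes) of the 6 genes in the 4 comparisons with ctrl-EVs, without (grey) and with (purple) the replicate number as a block. Cybb lies to the right of 0 and Cyba to the left in all 4 panels, and the block shortens the error bars more than it moves the points.

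Whether Cybb moved with the other subunits was read from the correlation, over 12 libraries, of log2(normalized count + 1) after the mean of the 4 libraries of a number was subtracted. The libraries share 3 ctrl-EV samples and the normalization, so this is a description across libraries and carries no p. Among the 10856 genes whose mean normalized count was 50 or more, Ncf1 had r = 0.87 with Cybb and ranked 63, so 0.580% of these genes were at least as like Cybb. Rac1 had r = -0.03, Ncf4 r = -0.06 and Rac2 r = -0.25, in the middle or lower part of the ranking, and Cyba had r = -0.64 at rank 10052.

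The likeness of Ncf1 rested in part on the libraries numbered 1. Without the 4 libraries of that number r was 0.61 over 8 libraries, and the rank was 1410. For Cyba r stayed between -0.71 and -0.54 whichever number was left out, whereas for Ncf4 it ran from -0.62 to 0.23, for Rac1 from -0.28 to 0.29 and for Rac2 from -0.55 to 0.30. With deviations taken from the mean of all 12 libraries instead, r was 0.86 for Ncf1, -0.67 for Cyba, 0.044 for Ncf4, 0.067 for Rac2 and -0.52 for Rac1, which then ranked 9860. The 5 genes most like Cybb were Tiparp (r = 0.97), Net1 (0.96), Cdca7l (0.95), Cenpo (0.95) and Pik3r5 (0.95). Which genes took these 5 places varied, since 1 of them was among the top 5 without the libraries numbered 1, 1 without those numbered 2, 0 without those numbered 3 and 0 when deviations were taken from the mean of all 12 libraries. With log2(TPM + 1) in place of the normalized counts 2 of them stayed among the top 5. Tiparp encodes an ADP-ribosyltransferase, Net1 a guanine nucleotide exchange factor and Pik3r5 a regulatory subunit of a phosphoinositide 3-kinase. Like Cybb, all 5 were higher than ctrl-EVs of the same number in 9 of 9 libraries, with log2 differences of 0.01 to 0.74, which largely restates how they were chosen.

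**Figure D5:**
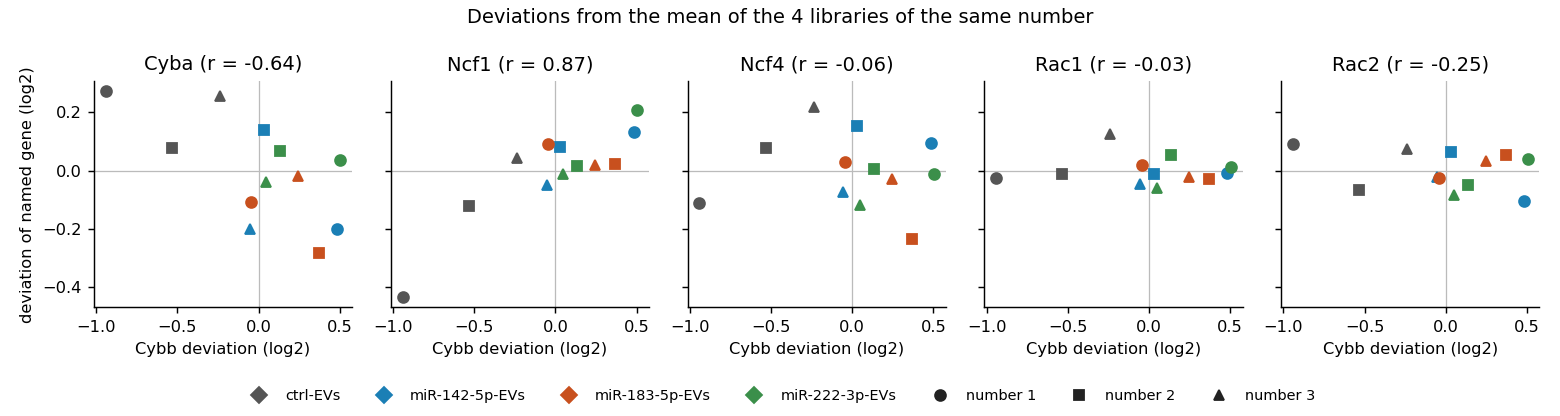
Deviation of each library from the mean of the 4 libraries of its number on the log2 scale, for Cybb (horizontal axes) and for the other 5 genes (vertical axes), with Pearson's r over 12 libraries in the titles. The ctrl-EV library numbered 1 is the leftmost point of every panel and lies far below the rest for Ncf1, while the Cyba points fall from left to right.

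The remaining genes of the pathway were read by function. Of 12 other NADPH oxidase genes 6 passed the filter on low counts, among them Cybc1 (44.0 ± 4.69 TPM, SD, n = 12), which encodes a chaperone of gp91phox, and Rac3 (9.13 ± 3.73 TPM). Nox3, Duox1, Duox2, Duoxa1, Duoxa2 and Noxa1 had at most 3 counts in any library. None of the 6 was called in any comparison with ctrl-EVs, and their median log2 fold change over all miR-EVs was 0.01, where all tested genes had 0.01. With the block, DESeq2 set no adjusted p for Nox1, Nox4, Noxo1 and Rac3 with miR-183-5p-EVs, miR-222-3p-EVs or all miR-EVs. It could not call them there. Nox1, Nox4 and Noxo1 were low, at means of 0.77, 0.99 and 1.26 TPM.

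Genes for assembly and activation, 19 of 19 tested, held 0 called genes, with a median log2 fold change of 0.02 over all miR-EVs and a range of -0.29 to 0.33. With the block, DESeq2 set no adjusted p for Prkcb and Tiam1 with miR-183-5p-EVs, miR-222-3p-EVs or all miR-EVs. The same held for Prkca and Hvcn1 with miR-222-3p-EVs. The highest by TPM were Arhgdib (741 ± 269) and Arhgdia (295 ± 27.0), which keep Rac in the cytosol, and Prkcd (262 ± 146), a kinase of p47phox. Transcription factors with known roles at the Cybb gene were tested for 10 of 12 and held 0 called genes, with a median of 0.06 and a range of -0.16 to 0.24. Of these Spi1 (94.8 ± 32.9 TPM), the myeloid master factor PU.1, was highest, and Nfkb1 was at 55.7 ± 20.2 TPM. Prdm1 had no adjusted p in the blocked DESeq2 fit with miR-183-5p-EVs, miR-222-3p-EVs or all miR-EVs.

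Genes that remove superoxide and peroxide were tested for 13 of 14 and held 0 called genes, with a median of 0.03 and a range of -0.09 to 0.18. Sod1 (607 ± 33.0 TPM), the cytosolic superoxide dismutase, and the glutathione peroxidases Gpx1 (408 ± 109) and Gpx4 (403 ± 39.8) were the most abundant. In the 4 lists no gene was called by DESeq2 with or without the block or by edgeR's quasi-likelihood test with it. At an unadjusted p under 0.05 over all miR-EVs DESeq2 had 0 genes of any list without the block, and with it 0 of 6 other oxidase genes, 6 of 19 assembly genes, 2 of 10 transcription factors and 1 of 13 removal genes, beside 1896 of 13903 genes in all. For the replicate number DESeq2 called 4 of 6 other oxidase genes, 19 of 19 assembly genes, 6 of 10 transcription factors and 9 of 13 removal genes, beside 69.4% of all genes.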

How the data were processed

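Stranded mRNA libraries were sequenced by the authors as read pairs and assigned to Ensembl mouse transcripts with Salmon. The deposited files hold, per transcript, a length, an effective length, an estimated count, not normalized between libraries and not always whole, and a TPM value scaled by the authors to a sum of 1000000 per library. The use of strand and the filters are not given in the sources used here.

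Transcripts were matched to GENCODE vM21 (GRCm38), 116622 of 118783 (98.2%), and estimated counts were summed to 35865 genes and rounded. The 13906 genes reaching 10 counts in 3 or more libraries were tested with DESeq2 1.42.0 (R 4.3.3) in 1 model of the 4 groups, with the TPM-weighted transcript length as offset and a two-sided Wald test. Called genes had a Benjamini-Hochberg adjusted p under 0.05. The fit over all miR-EVs set 9 libraries against 3 and counted all of them as separate samples. Its SEs and p-values can therefore be too small. Each fit was also made with replicate number as a block. These numbers come from the titles, and the deviations of same-numbered libraries from their group means correlated at 0.409 to 0.797 in 18 of 18 pairs, so the numbers were taken to pair libraries. Alternatives were edgeR 4.0.16, limma 3.58.1 on log2(TPM + 1) for genes with a mean TPM of at least 1, other factors, offsets and filters, and libraries left out. All 6 members were to be named, with the 5 genes most like Cybb and the 3 of highest TPM in each other list. Some genes of these lists are not reported here. The members, lists and tests were chosen with earlier results of these data known. The floors reflect counting error alone, because libraries had no molecular identifiers and read pairs can be copies of 1 molecule.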

Additional observations from a re-analysis of the deposited data

How the results depend on the processing

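In the order of the 3 mimics and all miR-EVs, DESeq2 with the replicate block called 8, 57, 9 and 223 genes in place of 1, 0, 0 and 0, and 12 in place of 1 for any of the 4 groups. The block without the length offset called 4, 32, 6 and 153. For the miR-142-5p mimic, edgeR's quasi-likelihood test and limma, each with and without the block, and DESeq2 on only the compared groups called 0 genes, and edgeR called 0 for any of the 4 groups. Leaving out single libraries gave 0 to 1, 0 to 1, 0 to 0 and 0 to 3 calls. In the block without number 1, added after seeing the data like the 2 others of its kind, DESeq2 called 2, 74, 1 and 138 genes, without number 2 it called 27, 14, 20 and 524, and without number 3 it called 14, 25, 15 and 173. Leaving aside Cybb in the contrasts that chose it, members gained calls only in the block without 1 number, all given as log2 fold changes. Without number 3 these were Cybb at 1.0 for the miR-142-5p mimic and 1.06 for the miR-222-3p mimic and Ncf1 at 0.36 over all miR-EVs, and without number 2 they were Cyba at -0.46 for the miR-142-5p mimic and -0.35 over all miR-EVs. Number 3 had the smallest Cybb difference with every mimic. The fits without it use ctrl-EV libraries that also put Cybb forward. The cause of the gained calls was not tested. With single libraries left out in the fit with no block, no member was called, leaving aside Cybb in the contrasts that chose it. The log2 fold change in these fits ran, in the same order, from 0.25 to 1.19, 0.58 to 0.98, 0.36 to 1.23 and 0.74 to 1.02 for Cybb, from -0.57 to 0.051, -0.74 to 0.046, -0.50 to 0.16 and -0.47 to 0.088 for Cyba, from -0.068 to 0.42, -0.062 to 0.41, -0.083 to 0.47 and 0.17 to 0.39 for Ncf1. It ran from -0.33 to 0.32, -0.41 to 0.25, -0.42 to 0.23 and -0.39 to 0.27 for Ncf4, from -0.12 to 0.012, -0.10 to 0.023, -0.091 to 0.035 and -0.10 to 0.023 for Rac1, from -0.16 to 0.014, -0.095 to 0.043, -0.12 to 0.021 and -0.078 to -0.016 for Rac2. Signs also turned, without a call, in limma for Ncf4 and the miR-142-5p mimic (0.048), Rac1 and the miR-222-3p mimic (0.0028) and Rac2 and the miR-183-5p mimic (0.013), the same with and without its block. They turned in the block without number 3 for Ncf4 (0.14 for the miR-142-5p mimic, 0.0085 for the miR-222-3p mimic, 0.027 over all miR-EVs) and Rac1 (0.0033, 0.013, 0.045 and 0.021), and in the block without number 1 for Rac2 (0.018 for the miR-142-5p mimic and 0.038 for the miR-183-5p mimic). Cybb kept its sign in all of these. The likeness of Ncf4 to Cybb moved to r = -0.62 without number 1. With 3 libraries a group and SEs of 0.39 to 0.48, the fit with no block limits what can be said of Cyba, Ncf4 and Cybb. With no library left out, pairing by number changed no call of the members, leaving aside Cybb in the contrasts that chose it. For Cybb with miR-222-3p-EVs the blocked DESeq2 fit set no adjusted p, so no call was possible there.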
